A study of Mus musculus with 70 samples.

Results

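The Fos and Jun family was taken as the 6 genes Fos, Fosb, Fosl2, Jun, Junb and Jund, chosen by symbol, of the 24346 genes listed in the FPKM table. FPKM is the number of fragments of a transcript scaled to its length and to the mapped fragments of the library. All 6 members had a mean of at least 1 FPKM over the 70 libraries and were among the 12994 genes tested. The libraries came from bulk dorsal hippocampus of 70 adult male C57BL/6 J mice that lived singly, 1 library a mouse, in 7 groups of 10. The comparisons ask how AP-1 genes stood 1 h after brief spatial learning and how this differed with earlier exercise.

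Home cage mice had no wheel and no training. The other 6 groups had a 3-min session of object location memory (OLM) training, too short by design to leave a lasting memory in untreated mice, and tissue was taken 1 h later. Sedentary mice (0-0-0) were trained without exercise. The 5 exercise groups are named by their days of initial wheel running, of sedentary delay and of reactivating running. In 0-0-2 mice ran for 2 days only, and in 14-0-0 they ran for 14 days up to training. The 14-7-0 and 14-14-0 groups ran for 14 days and then waited 7 or 14 days. In 14-7-2 the 7-day wait was followed by 2 more days of running. Running was voluntary, and wheels were taken out the night before training. Each group held 5 libraries from harvest cohort 1 and 5 from harvest cohort 2. All animals were males of a single strain, so the comparisons cover no other sex or strain.

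Proteins of the Fos family pair with proteins of the Jun family through leucine zippers, and Jun proteins also pair with each other. These dimers form the transcription factor AP-1, which binds DNA at AP-1 sites. In neurons Fos, Fosb and Junb are immediate early genes: calcium and kinase signals switch them on within minutes through factors such as CREB and SRF, without new protein synthesis, and their mRNA is short-lived. Jund and, in many brain regions, Jun keep a higher resting level, so that AP-1 composition shifts when Fos proteins appear. Fosb gives rise to full-length FosB and to the truncated, long-lived ΔFosB by splicing, and a value per gene cannot separate them.

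By GENCODE vM21 on GRCm38 (mm10, the build named in the submitters' processing notes), Fos lies at chr12:85473890-85477273 on the plus strand and Fosb at chr7:19302696-19310051 on the minus strand. Fosl2 lies at chr5:32135801-32157842 on the plus strand and Jun at chr4:95049034-95052222 on the minus strand. Junb lies at chr8:84974484-84978718 on the minus strand and Jund at chr8:70698949-70700616 on the plus strand. Jun and Jund are genes of 1 exon.

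Promoter sequence is shown for Fos, whose level differed most often between groups, and for Jun, whose level differed least. The 150 bases before each start site are given 5′ to 3′ on the gene's strand from RefSeq on GRCm38.p6, for Fos at chr12:85473740-85473889 and for Jun at chr4:95052223-95052372. Capitals mark the core of the cAMP response element bound by CREB, written TGACG. They also mark the letters TATAA, found where transcription starts at a fixed distance, and those of the box named CCAAT. The AP-1 site, TGANTCA, was searched as well, and each motif was searched on both strands. The AP-1 site shares its first letters with the CREB core, but no stretch of 1 strand matches both from the same base.
Fos: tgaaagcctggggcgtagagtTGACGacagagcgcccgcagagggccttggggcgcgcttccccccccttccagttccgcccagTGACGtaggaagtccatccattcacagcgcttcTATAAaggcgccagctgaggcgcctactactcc
Jun: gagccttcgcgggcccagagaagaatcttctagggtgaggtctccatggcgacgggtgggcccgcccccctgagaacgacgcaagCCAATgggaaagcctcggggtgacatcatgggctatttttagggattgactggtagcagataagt

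All 6 members matched a RefSeq promoter. In this window Fos held TGACG 129 and 66 bases before its start and TATAA 33 bases before it. Jun held CCAAT 65 bases before its start and none of the other motifs as written. The search took only these exact letters, so related sequences of another length, such as tgacatca in the Jun window, were not counted. Fosb and Junb each held TGACG once, 60 and 106 bases before their starts, and Junb held CCAAT 36 bases before it. Fosl2 and Jund held none of the 4 motifs. The RefSeq start lies 1210 bases before the GENCODE start for Jund and 671 bases after it for Fosl2, so neither window is that of the GENCODE promoter. The Fosb window overlaps the RefSeq gene, which reaches 67 bases beyond the GENCODE start, and its TGACG lies in that overlap. Among 27025 promoters of the same length, 13.5% held TGACG, 14.7% TATAA, 25.3% CCAAT and 4.27% TGANTCA. The 4 stretches around TGACG are set side by side so that the bases around the core can be compared, at chr12:85473751-85473775 and chr12:85473814-85473838 for Fos, chr7:19310091-19310115 for Fosb and chr8:84978840-84978864 for Junb, with TGACG in capitals.
Fos, 129 bases before the start: ggcgtagagtTGACGacagagcgcc
Fos, 66 bases before the start: ttccgcccagTGACGtaggaagtcc
Fosb, 60 bases before the start: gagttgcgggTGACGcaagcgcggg
Junb, 106 bases before the start: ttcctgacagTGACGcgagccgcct

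Some libraries stood apart. In sedentary replicate 6 the summed level of 7 dentate gyrus granule cell markers was 24.3 FPKM against 56.4 to 200 FPKM in the other libraries, and that of 9 pyramidal cell markers was 142 FPKM against 263 to 594 FPKM. Its 7 thalamus markers summed to 322 FPKM against 23.1 to 208 FPKM. Its 10 oligodendrocyte markers summed to 7525 FPKM against 1448 to 5347 FPKM, and its 7 inhibitory neuron markers to 653 FPKM against 175 to 453 FPKM. Its 7 neocortex markers summed to 42.8 FPKM against 46.6 to 69.5 FPKM. 14-7-0 replicate 4 had a value of 0 FPKM for 10279 genes, and no other library had it for more than 7199. The FPKM come without reads. The study lists reads by lane and index, but these were not matched to libraries here, and depth was not used. Libraries also differed in GC score, the mean level of the 10% of genes richest in G and C minus that of the 10% poorest, on the log2 scale: its mean was 0.15 ± 0.455 (SD, n = 10) in sedentary mice and between -0.082 and 0.038 in the other groups. In bulk tissue, fewer cells that express a gene and less RNA per cell cannot be told apart.

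Among the members, Jun had the highest level in 65 of 70 libraries and Fosb the lowest in 67. Over all libraries the median was 22.4 FPKM for Jun, 10.1 FPKM for Jund, 7.03 FPKM for Fosl2, 7.03 FPKM for Junb, 3.93 FPKM for Fos and 2.08 FPKM for Fosb. Junb varied most, from 1.28 to 38.8 FPKM, a ratio of 30.4 between the highest and the lowest library. That ratio was 8.65 for Fos, 8.31 for Jund, 4.59 for Fosb, 4.46 for Fosl2 and 4.36 for Jun. Within groups and cohorts the SD of Junb was 1.35 on the log2 scale, larger than that of 98.7% of the genes tested. Fosl2, the steadiest member, had an SD of 0.33, larger than that of 77.1% of genes.

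**Figure D1:**
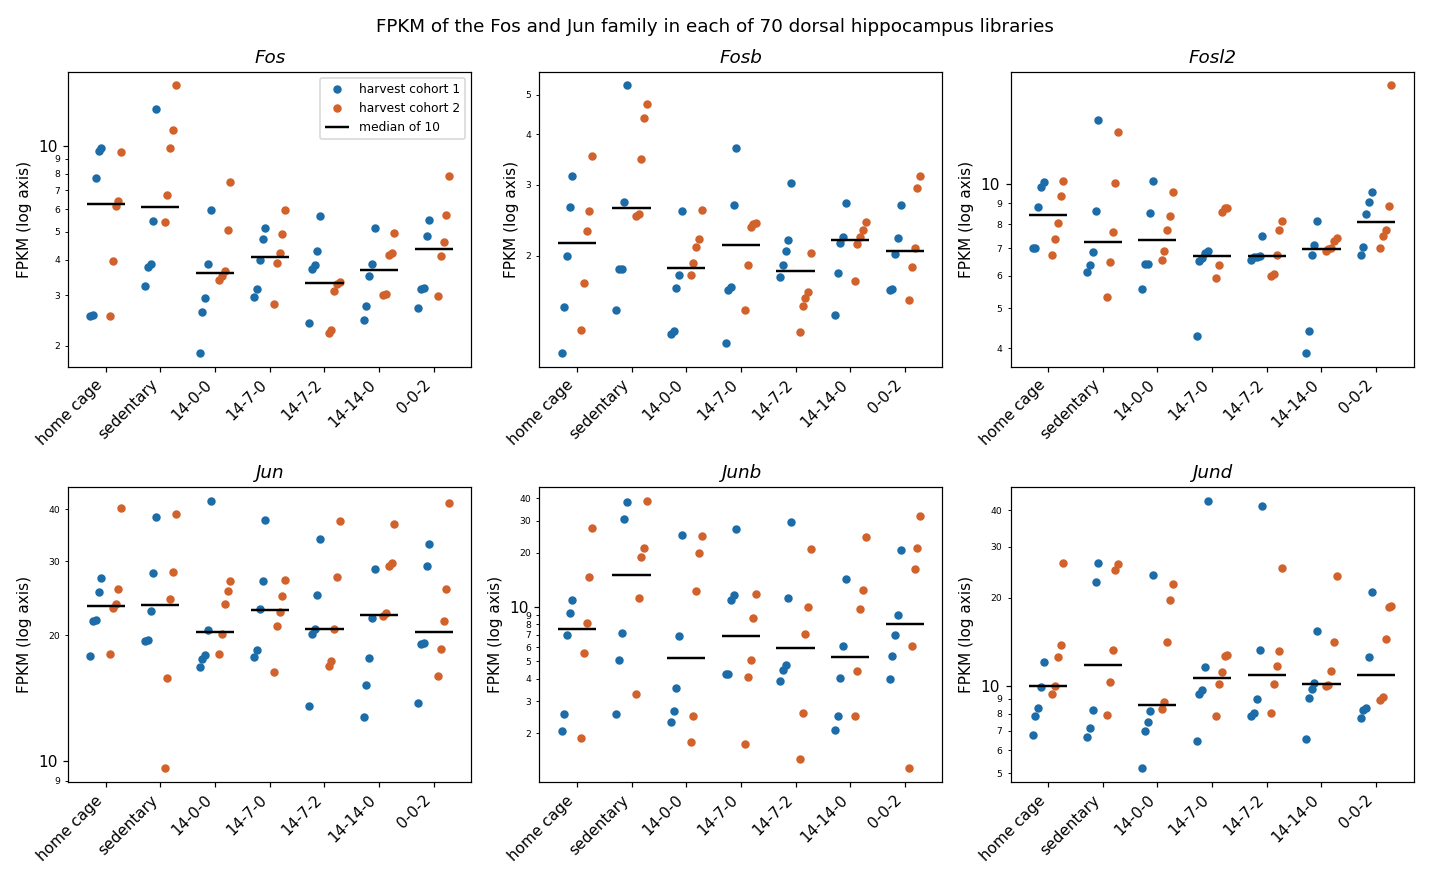
FPKM of each member (log axes, 1 panel a gene) in the 10 libraries of each group, with points coloured by harvest cohort and a bar at the median of 10. Fos in home cage and sedentary mice spreads from 2.53 to 16.3 FPKM, while the highest value in any exercise group is 7.85 FPKM.

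Fos, the partner of Jun proteins most used as a mark of recent neuronal activity, was lower in each of the 5 exercise groups than in trained mice that had not run. In sedentary mice Fos had a lowest, median and highest value of 3.22, 6.10 and 16.3 FPKM. In home cage mice the values were 2.53, 6.27 and 9.86 FPKM. Fos thus had nearly the same median with and without training, and the sedentary group had the higher mean, 7.94 ± 4.54 FPKM (SD, n = 10) against 6.09 ± 3.05 FPKM. Its 3 highest sedentary libraries, replicates 8, 0 and 7 at 16.3, 13.4 and 11.4 FPKM, lay above every home cage library.

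In 14-0-0 the lowest, median and highest Fos values were 1.88, 3.59 and 7.48 FPKM, and in 14-7-0 they were 2.80, 4.10 and 5.94 FPKM. In 14-7-2 they were 2.22, 3.32 and 5.68 FPKM, and in 14-14-0 they were 2.46, 3.69 and 5.18 FPKM. In 0-0-2 they were 2.72, 4.36 and 7.85 FPKM. All groups overlapped, but 0 of 10 libraries of 14-14-0, 14-7-0 and 14-7-2 and 1 of 10 of 14-0-0 and 0-0-2 passed the sedentary median. The log2 SD of Fos was 0.81 in both groups without exercise and between 0.35 and 0.57 in the exercise groups.

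Against sedentary mice, with limma on log2(FPKM + 0.1), Fos fell by 1.04 in 14-7-2 (standard error 0.274, p = 0.00105), by 0.91 in 14-14-0 (0.265, p = 0.00263) and by 0.85 in 14-0-0 (0.296, p = 0.00912), all on the log2 scale. It fell by 0.74 in 14-7-0 (0.265, p = 0.0109) and by 0.69 in 0-0-2 (0.283, p = 0.0246). These differences correspond to levels 1.61 to 2.06 times lower. No adjusted p passed 0.05; after Benjamini-Hochberg adjustment over 12994 genes the smallest for Fos was 0.361, in 14-0-0. The 5 comparisons use the same 10 sedentary libraries and are not independent of each other.

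Leaving out 1 sedentary library at a time changed the Fos call only in 0-0-2. Without sedentary replicate 0 the Fos difference in 0-0-2 was -0.58 (limma p = 0.0513), and without sedentary replicate 8 it was -0.55 (p = 0.0523). In the other 4 comparisons Fos kept a p under 0.05 with any 1 sedentary library left out. Without sedentary replicate 6, the library with few granule and pyramidal cell markers, the Fos differences lay between -0.99 and -0.63 (p between 0.00227 and 0.0430).

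Within harvest cohort 1 the Fos differences from sedentary were -0.66 in 14-0-0, -0.38 in 14-7-0, -0.40 in 14-7-2, -0.56 in 14-14-0 and -0.44 in 0-0-2, and none passed limma's unadjusted threshold. Within cohort 2 they were -1.05, -1.11, -1.68, -1.26 and -0.93, and all 5 passed. Fos in sedentary mice had a median of 3.86 FPKM in cohort 1 and 9.82 FPKM in cohort 2. In 14-7-2 it had a median of 3.83 FPKM in cohort 1 and 3.10 FPKM in cohort 2. The difference between cohorts was tested in each comparison and passed only for 14-7-2 (-1.28, standard error 0.484, limma p = 0.0162, adjusted p = 0.953).

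Fosb, a close relative of Fos, was also lower than sedentary, by less. Its lowest, median and highest values were 1.47, 2.63 and 5.28 FPKM in sedentary mice and 1.15, 2.15 and 3.54 FPKM in home cage mice. In the exercise groups the medians lay between 1.83 FPKM in 14-7-2 and 2.19 FPKM in 14-14-0. The highest value was 3.70 FPKM, in 14-7-0 replicate 4, the library with 10279 genes at 0 FPKM. The next was 3.16 FPKM in 0-0-2 replicate 8. The groups overlapped: between 0 and 3 of 10 libraries of an exercise group passed the sedentary median.

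Against sedentary mice Fosb fell by 0.59 in 14-7-2 (limma, standard error 0.208, p = 0.00972), by 0.57 in 14-0-0 (0.209, p = 0.0125) and by 0.43 in 14-14-0 (0.199, p = 0.0435). The differences of -0.46 in 14-7-0 (p = 0.0592) and -0.40 in 0-0-2 (p = 0.0688) did not pass, though both did without sedentary replicate 1, 2 or 3. Fosb in 14-7-0 also passed without the sparse library 14-7-0 replicate 4 (-0.55, p = 0.0229). The call in 14-14-0 was lost without sedentary replicate 0 (p = 0.0915), 4 (p = 0.0516), 6 (p = 0.0829), 7 (p = 0.0707) or 8 (p = 0.0887). Within cohort 1 no Fosb difference from sedentary passed, with values from -0.48 to -0.13. Within cohort 2 all 5 passed, with values from -1.05 to -0.58. Fosb also differed between cohorts in 14-7-2 (-0.92, limma p = 0.0257); the p was 0.0550 without sedentary replicate 2 and 0.0520 without replicate 8.

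**Figure D2:**
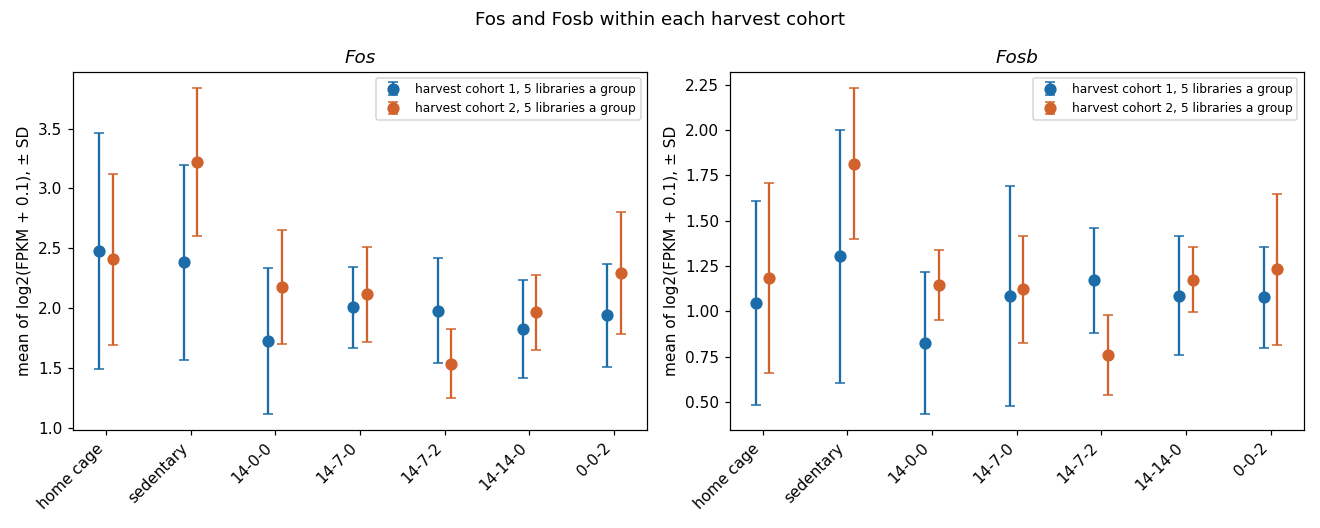
Mean of log2(FPKM + 0.1) ± SD of Fos and Fosb in each group, drawn apart for the 5 libraries of each harvest cohort. In sedentary mice cohort 2 lies above cohort 1 (3.22 against 2.38 for Fos), and in 14-7-2 it lies below (1.54 against 1.98).

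Fosl2, which encodes Fra-2, a Fos protein without the strong activation domain of Fos, passed the test against home cage mice in 3 exercise groups and against sedentary mice in none. Its lowest, median and highest values were 6.75, 8.43 and 10.2 FPKM in home cage mice and 5.34, 7.26 and 14.3 FPKM in sedentary mice. They were 3.89, 6.98 and 8.12 FPKM in 14-14-0, 5.99, 6.69 and 8.15 FPKM in 14-7-2 and 4.28, 6.71 and 8.75 FPKM in 14-7-0. In 14-7-2 and 14-14-0, 0 of 10 libraries passed the home cage median. In 14-0-0 and 0-0-2 the medians were 7.32 and 8.11 FPKM.

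Against home cage mice Fosl2 fell by 0.37 in 14-14-0 (limma, standard error 0.125, p = 0.00752), by 0.29 in 14-7-0 (0.118, p = 0.0238) and by 0.28 in 14-7-2 (0.0858, p = 0.00348, adjusted p = 0.190). In 14-0-0 it differed by -0.15 (p = 0.183) and in 0-0-2 by 0.04 (p = 0.765). Within cohort 1 the Fosl2 differences from home cage were -0.46 in 14-7-0, -0.31 in 14-7-2 and -0.53 in 14-14-0, and all 3 passed by limma. Within cohort 2 they were -0.12, -0.26 and -0.21, and none passed. Whether these differences from home cage differed between cohorts was not tested. Against sedentary mice its differences lay between -0.33 and 0.09, and none passed by limma, while Cyber-T on FPKM, the authors' kind of test, called that in 14-14-0 (p = 0.0390).

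Among the Jun genes none passed by limma in any comparison between groups. Jun, the AP-1 subunit that pairs with every Fos protein, had medians between 20.4 and 23.6 FPKM in all 7 groups. Its lowest and highest values were 9.62 and 39.0 FPKM in sedentary mice and 17.8 and 40.1 FPKM in home cage mice. Its log2 differences from sedentary lay between -0.05 and 0.01, with standard errors from 0.208 to 0.232, and those from home cage between -0.11 and -0.06.

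Junb, an immediate early Jun protein that activates many AP-1 targets less than Jun does, had the largest spread of the members and no call by limma. Its lowest, median and highest values were 2.56, 15.0 and 38.8 FPKM in sedentary mice and 1.89, 7.57 and 27.5 FPKM in home cage mice. In the exercise groups the medians ran from 5.23 FPKM in 14-0-0 to 8.02 FPKM in 0-0-2, and each group held a library above 24 FPKM. The groups overlapped over most of their range.

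Junb differed from sedentary by -0.995 in 14-14-0 (limma, standard error 0.556, p = 0.0884), -0.91 in 14-0-0 (0.617, p = 0.154), -0.86 in 14-7-2 (0.579, p = 0.153), -0.80 in 14-7-0 (0.537, p = 0.150) and -0.47 in 0-0-2 (0.588, p = 0.437). Sedentary minus home cage was 0.89 (0.563, p = 0.131). Cyber-T called Junb lower than sedentary in 14-14-0 (p = 0.0129), 14-7-0 (p = 0.0211) and 14-7-2 (p = 0.0408). By limma Junb in 14-14-0 passed without sedentary replicate 3 (-1.24, p = 0.0313) or 9 (-1.20, p = 0.0418). Jund, the Jun gene with the steadiest resting expression in many tissues, had medians between 8.56 and 11.8 FPKM, and its differences from sedentary lay between -0.28 and -0.07. The highest Jund value, 43.2 FPKM, was that of the sparse library 14-7-0 replicate 4.

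**Figure D3:**
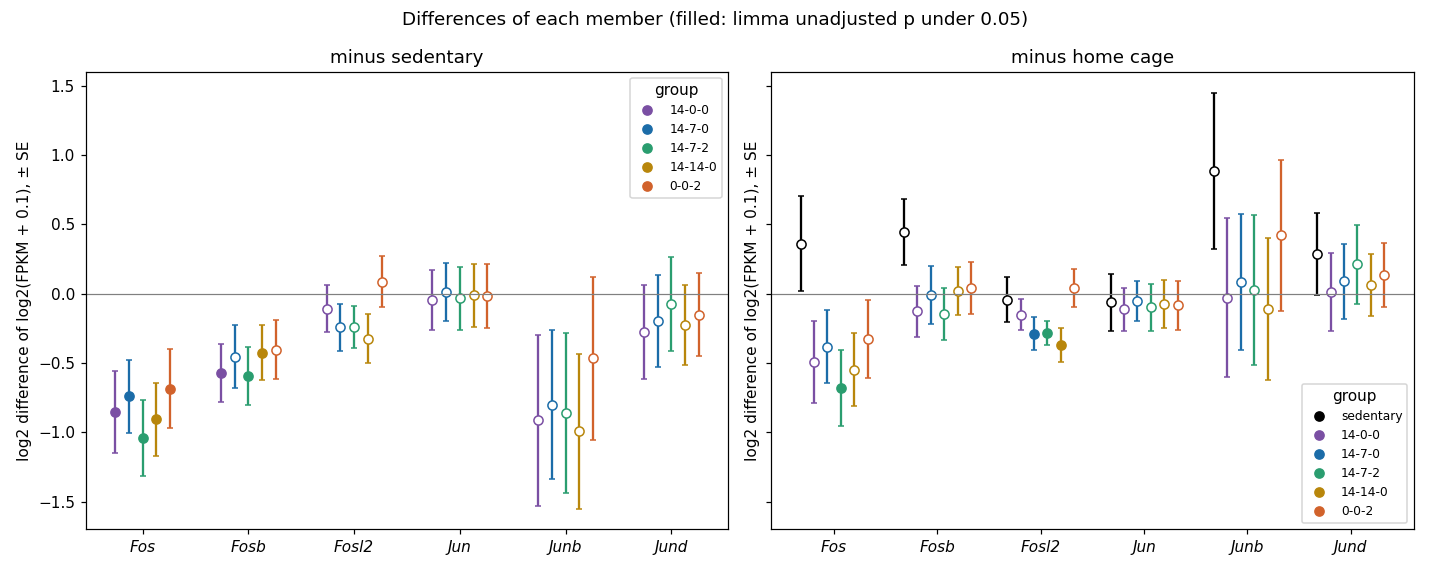
Difference of each member in log2(FPKM + 0.1) from sedentary (left) and from home cage mice (right), with standard error, for each trained group; filled points have a limma p under 0.05. Fos lies between -1.04 and -0.69 against sedentary in the 5 exercise groups, while Jun lies between -0.05 and 0.01.

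The number of members called was read against all tested genes. Against sedentary, 2 of 6 members were called in 14-0-0 (9.15% of all genes), 1 in 14-7-0 (3.26%), 2 in 14-7-2 (4.39%), 2 in 14-14-0 (4.95%) and 1 in 0-0-2 (2.37%). All of these calls were lower values of Fos or Fosb. The median log2 difference of the 6 members lay between -0.42 and -0.28, and that of all tested genes between -0.010 and 0.008. Called means an unadjusted p under 0.05 by limma; after adjustment 0 members were called in any comparison.

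Training by itself was compared without exercise. Between sedentary and home cage mice 0 of 6 members were called by limma (2.3% of all genes) and 2, Fosb and Junb, by Cyber-T. Fos was 0.36 higher (standard error 0.342, p = 0.305) and Fosb 0.44 higher (0.239, p = 0.0776) in sedentary mice. Fosb passed in a joint limma fit of all 7 groups (p = 0.0196) and without sedentary replicate 1 (p = 0.0496), 2 (p = 0.0293) or 3 (p = 0.0496). Fos differed by -0.09 within cohort 1 and by 0.81 within cohort 2, and neither passed by limma. The test of a difference between cohorts did not pass either (0.91, standard error 0.665, limma p = 0.189). For the mean of all 6 trained groups against home cage, 0 members were called by limma (3.59%), and Fos stood at -0.35 (p = 0.0761).

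Against home cage mice 0 members were called in 14-0-0 (7.52% of all genes), 1 in 14-7-0 (4.19%), 2 in 14-7-2 (9.96%), 1 in 14-14-0 (2.26%) and 0 in 0-0-2 (6%). Cyber-T called 1 in 14-0-0 and 0 in 0-0-2. The calls were Fosl2 in 3 groups and Fos in 14-7-2, which fell by 0.68 (limma, standard error 0.274, p = 0.0211). Fos differed from home cage by -0.55 in 14-14-0 (p = 0.0512), -0.49 in 14-0-0 (p = 0.110), -0.38 in 14-7-0 (p = 0.164) and -0.33 in 0-0-2 (p = 0.261). These comparisons share the 10 home cage libraries.

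The reactivating exercise was tested as 14-7-2 minus 14-7-0, where 0 members were called by limma (5.39% of all genes) and 0 by Cyber-T. Fos differed by -0.30 (standard error 0.166, limma p = 0.0841), Fosb by -0.14 and Fosl2 by 0.01. Over all 6 trained groups, limma's F test called 2 of 6 members, Fos and Fosb (7.38%). Its p was 0.000556 for Fos (adjusted p = 0.195), 0.0203 for Fosb and 0.0583 for Fosl2. Without sedentary replicate 0, 6 or 8 the p for Fosb was 0.0869, 0.0691 and 0.0775.

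Between harvest cohorts 0 members were called by limma (11.9% of all genes), and all 6 were higher in cohort 2, by 0.09 to 0.29. Of 36 tests of a difference between cohorts, 2 passed, those of Fos and Fosb in 14-7-2 minus sedentary (2.42% of all genes). At a p under 0.05 about as many pass by chance alone, and Fos and Fosb moved together (r = 0.85). Cyber-T, which compares 2 groups, was not run on the cohorts.

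The members moved with the GC content measured across each library. Junb and Jund have transcripts of 62.6% and 67.2% GC, at percentiles 98.5 and 99.8 of the genes tested, and Fos, at 51.9%, lies at percentile 59.1. Over the 70 libraries, which share their groups and processing, Pearson's r with the GC score was 0.81 for Junb, 0.68 for Jund, 0.63 for Fosb, 0.55 for Jun and Fos and 0.33 for Fosl2. The sedentary libraries with the highest Junb, replicates 8, 0 and 4 at 38.8, 38.3 and 30.7 FPKM, had GC scores of 0.37, 0.30 and 0.97.

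With the GC score as a covariate, an alternative added after these values were seen, Fos stayed lower than sedentary with a p under 0.05 in all 5 exercise groups, by 0.58 to 0.90. Fosb kept its calls in 14-0-0 and 14-7-2 and lost that in 14-14-0 (-0.31, p = 0.0743). Junb moved most, to between -0.54 and -0.15. In that fit Fos also lay below home cage in the mean of trained groups (-0.39, limma p = 0.0184).

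**Figure D4:**
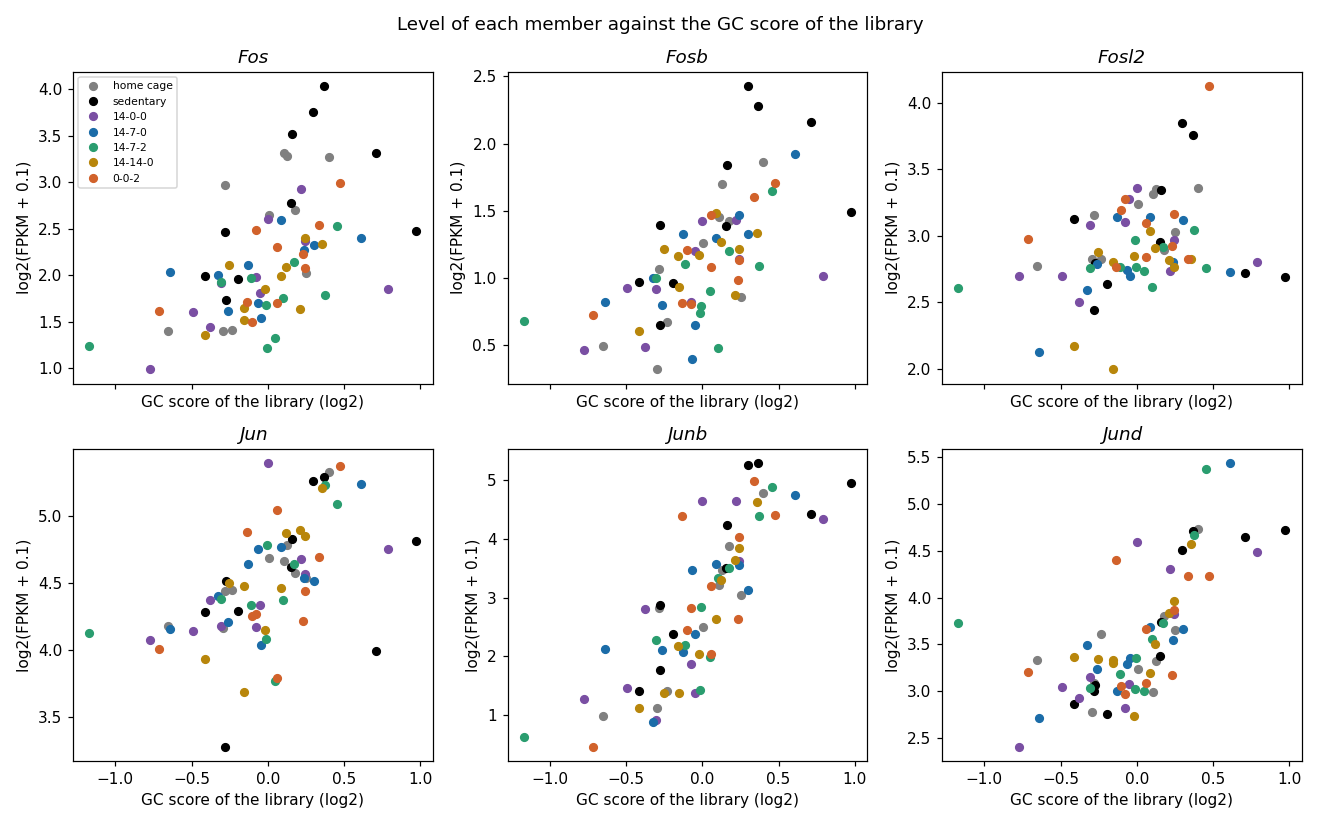
Level of each member (log2(FPKM + 0.1)) against the GC score of the library, with the 70 libraries coloured by group. Junb climbs along the whole range (r = 0.81), and the highest score, 0.97, is that of a sedentary library.

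Over the 70 libraries Fos and Fosb moved together most closely of all member pairs, with r = 0.85 (rho = 0.83, and r = 0.81 without the 2 libraries farthest from the Fos median). Within groups and cohorts, and after taking out the GC score, r was 0.76. Junb and Jund followed at r = 0.79, which was 0.58 after the same steps, and Jun and Junb at r = 0.77, which was 0.70. Fosl2 and Jund were the least alike, at r = 0.22. These correlations describe libraries that share groups, cohorts and normalization.

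The genes whose pattern was most like a member differed between them. For Fos they were Arc, a synaptic immediate early gene (r = 0.87), Fosb (0.85), Egr1, an immediate early zinc finger factor (0.80), Stk40 (0.78) and Midn (0.74). For Fosb they were Fos, the heat shock cochaperone Dnajb1 (0.84), Rmdn3 (0.79), Stk40 (0.78) and Sertad1 (0.76). For Fosl2 they were C2cd4c (0.78), Tshz3 (0.77), the potassium channel genes Kcnc4 (0.77) and Kcnf1 (0.72), and Sstr1 (0.71).

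For Jun they were Kcnk12, Vstm2b, Vps37b, Icam5 and Lzts3, with r from 0.80 to 0.82. For Junb they were Pcsk1n, C1qtnf4, Map1s, Vps37d and Abhd8, with r from 0.95 to 0.96. The transcripts of these 5 lie at GC percentiles from 85.9 to 100 of the genes tested. For Jund they were Irf2bpl, Bmyc, Pgp, Zfp771 and F8a, with r from 0.91 to 0.94.

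Other immediate early genes were taken as a list of 29, of which 27 were tested. Against sedentary, 1 rose and 6 fell in 14-0-0, 1 rose and 4 fell in 14-7-0, 1 rose and 6 fell in 14-7-2, 0 rose and 4 fell in 14-14-0 and 0 rose and 3 fell in 0-0-2. The list's median log2 difference lay between -0.20 and -0.14, against -0.010 to 0.008 for all tested genes. The share of all genes called in these comparisons was, in the same order, 9.15%, 3.26%, 4.39%, 4.95% and 2.37%. Egr1 fell in all 5 groups, by 0.67 in 14-7-2 (limma p = 0.000139) to 0.37 in 14-7-0 (p = 0.0109). Trib1, a pseudokinase, also fell in all 5, by 0.26 to 0.36. Arc fell by 0.81 in 14-7-2 (p = 0.0110) and by 0.72 in 14-14-0 (p = 0.0180).

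Npas4, an immediate early factor that responds to calcium in neurons, fell by 0.80 in 14-14-0 (limma p = 0.0022), 0.60 in 14-7-0 (p = 0.0122) and 0.54 in 0-0-2 (p = 0.0168). Sgk1, a kinase gene also induced by glucocorticoids, was the list's gene that rose: by 0.45 in 14-0-0, 0.40 in 14-7-0 and 0.39 in 14-7-2 (p between 0.00441 and 0.00656). It was also the list's gene with an adjusted call in the mean of trained groups against home cage (0.80, adjusted p = 7.74e-05). Between sedentary and home cage 3 of the list were higher in sedentary mice (Sgk1, Per1, Arl4d) and 1 was lower (Btg2), where 2.3% of all genes were called.

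Against home cage mice 3 of the list rose and 4 fell in 14-0-0, 3 rose and 3 fell in 14-7-0, 2 rose and 6 fell in 14-7-2, 1 rose and 4 fell in 14-14-0 and 2 rose and 4 fell in 0-0-2, where 7.52%, 4.19%, 9.96%, 2.26% and 6% of all genes were called. For the mean of the 6 trained groups 2 rose and 4 fell (3.59% of all genes called). There Btg2, an antiproliferative gene, fell by 0.30 (limma p = 0.000926), Klf10 by 0.27 (p = 0.0124) and Arc by 0.45 (p = 0.0228). Sgk1 was 0.53 higher in sedentary than in home cage mice (p = 3.81e-05, adjusted p = 0.495), where neither group had exercised.

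Other AP-1 proteins and dimer partners made a list of 18, of which 10 were tested, and 8, among them Fosl1 (mean 0.0226 FPKM) and Atf3 (0.701 FPKM), lay below the minimum. Against sedentary 0 rose and 2 fell in 14-0-0, 0 rose and 1 fell in 14-7-2, where 9.15% and 4.39% of all genes were called, and none was called by limma in the other 3 groups. Atf4, a stress-responsive bZIP factor, fell by 0.28 in 14-0-0 (limma p = 0.00539) and by 0.20 in 14-7-2 (p = 0.0231). Mafg, a small Maf protein, fell by 0.25 in 14-0-0 (p = 0.0393). Jdp2, a repressor that pairs with Jun, was 0.23 higher in sedentary than in home cage mice (p = 0.0222).

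Of 27 kinases and factors that act before AP-1, all tested, 1 rose and 1 fell in 14-0-0, 1 fell in 0-0-2 and none was called by limma in the other 3 comparisons with sedentary. The share of all genes called was 9.15% in 14-0-0 and 2.37% in 0-0-2. Map2k7, a kinase of the JNK pathway, fell by 0.12 in 14-0-0 (limma p = 0.005) and by 0.14 in 0-0-2 (p = 0.0117). Elk3, a partner of SRF, rose by 0.24 in 14-0-0 (p = 0.0144). Of 11 MAP kinase phosphatases, 10 were tested, and 1 fell in 14-0-0 and 2 in 14-7-2 (4.39% of all genes called). Dusp1 fell by 0.32 in 14-0-0 (p = 0.0466) and in 14-7-2 (p = 0.0446), and Dusp10 fell by 0.33 in 14-7-2 (p = 0.0403). Dusp16 was lower in the mean of trained groups than in home cage mice (-0.25, p = 0.000469, adjusted p = 0.244).

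Genes linked to AP-1 or to the later response to activity made a list of 25, of which 23 were tested. Against sedentary 2 rose in 14-0-0, 1 fell in each of 14-7-0, 14-7-2 and 14-14-0, and 1 rose and 1 fell in 0-0-2, beside the shares of all genes given for the immediate early genes. Rgs4 rose by 0.35 (limma p = 0.00852) and the neuropeptide precursor gene Scg2 by 0.22 (p = 0.0133) in 14-0-0. Hspa5, an endoplasmic reticulum chaperone, fell by 0.47 in 14-7-2 (p = 0.00155), 0.31 in 14-7-0 (p = 0.0122) and 0.32 in 0-0-2 (p = 0.0183). Against home cage mice 7 of the list rose and 1 fell in 14-0-0, 3 and 1 in 14-7-0, 4 and 1 in 14-7-2, 0 and 1 in 14-14-0 and 2 and 1 in 0-0-2, where 7.52%, 4.19%, 9.96%, 2.26% and 6% of all genes were called. The list's median difference from sedentary lay between -0.08 and 0.03.

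Markers of choroid plexus epithelium, the tissue that makes cerebrospinal fluid, moved with some groups. All 14 were higher than sedentary in 14-0-0 and in 14-14-0, with median log2 differences of 2.40 and 2.37, and none was called by limma in 14-7-0, 14-7-2 or 0-0-2. Their summed level ran from 76.2 to 514 FPKM in sedentary mice, from 94.5 to 18446 FPKM in 14-0-0 and from 114 to 24926 FPKM in 14-14-0. Of the 14, 5 were at 0 in some library. Single libraries were also high elsewhere: the sum reached 17504 FPKM in home cage mice and 13077 FPKM in 0-0-2. Its median was 236 FPKM in home cage mice, 204 FPKM in 0-0-2 and 158 FPKM in sedentary mice. In 14-0-0 and 14-14-0 the median was 2694 and 2515 FPKM. In 14-7-0 and 14-7-2 the summed level reached 2460 and 3482 FPKM. Over the 70 libraries the mean log2 level of these markers had r = -0.36 with Fos and -0.47 with Junb. Marker lists of other cells moved with the members as well. For Fos r was 0.52 with 7 neocortex markers, 0.47 with 7 inhibitory neuron markers and 0.47 with 9 astrocyte markers. For Fosb it was 0.56 with inhibitory neuron markers, for Junb 0.63 with 9 microglia markers and 0.58 with neocortex markers, and for Jun and Fosl2 0.68 and 0.61 with neocortex markers. Against sedentary 1 of 7 inhibitory neuron markers was lower in each of 14-0-0, 14-7-2 and 14-14-0, and between 0 and 2 markers of each of the other 3 lists were called in any exercise group. Of 10 oligodendrocyte markers, 6 were lower than sedentary in 0-0-2. Sedentary replicate 6 had the highest sum of oligodendrocyte and of inhibitory neuron markers of all libraries, and the values given for both lists include it. The share of all genes called against sedentary was 9.15% in 14-0-0, 3.26% in 14-7-0, 4.39% in 14-7-2, 4.95% in 14-14-0 and 2.37% in 0-0-2. The part of these marker lists in the results was not tested.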

How the data were processed

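RNA-seq of dorsal hippocampus was analysed in 70 libraries, 10 a group, each from a separate mouse. The authors kept single reads that both ELAND v2e and Bowtie placed at a unique location with few mismatches, and turned them into FPKM with the Tuxedo protocol. Per the labels, Cuffnorm and mm10 were used, with no versions. Only FPKM were used, with 0 columns unmapped. Of 24346 genes, 12994 reached a mean of 1 FPKM and were tested, and 11352 were not. Values were taken as log2(FPKM + 0.1), so differences of low genes are understated. Reads per sequencing sample, which the study names by lane and index, were not matched to libraries here, so values carry no counting error of their own.

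Groups were compared by limma 3.58.1 in R 4.3.3, with trend, on the libraries of the groups compared, two-sided and without covariates. The threshold for a call was the authors' own, an unadjusted p under 0.05, with Benjamini-Hochberg adjustment over 12994 genes. The fit was tested on simulated data. The members, lists and tests were chosen with earlier results of these data known, so no list is independent evidence. The rule for naming genes took the members in every comparison, up to 4 genes of smallest p in each list and the 5 genes of highest r with each member. GC content was that of the longest coding GENCODE vM21 transcript, matched for 12521 tested genes; the members were left out of the GC score.

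Each comparison was also run with a pseudocount of 1, with a minimum mean of 0.1 or of 5 FPKM, with median-ratio scaling, with quantile normalization, a joint fit of 7 groups, a cohort covariate, a replicate block, each cohort alone, Cyber-T on FPKM for comparisons of 2 groups (rewritten; window of 101 genes, prior weight 10), a p under 0.01, an adjusted p under 0.05, and fits without sedentary replicate 6 or 14-7-0 replicate 4. The GC score covariate and fits without each other sedentary library were added after the data were seen. No pair of libraries was identical (highest r 0.983). Python 3.11.15 and matplotlib 3.10.9 made the plots.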

Additional observations from a re-analysis of the deposited data

Results flagged for a closer look

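Of 42 sets of 10 libraries (6 members in 7 groups), 5 held a library far from the other 9, and chance alone gives about 1 in 20, or 2.1. Fosl2 was 17.37 FPKM in 0-0-2 replicate 8, where the next library had 9.60 FPKM. Jun was 40.14 FPKM in home cage replicate 8 (next 27.4 FPKM) and 41.94 FPKM in 14-0-0 replicate 4 (next 27.0 FPKM). Jund was 26.41 FPKM in home cage replicate 8 (next 13.8 FPKM) and 43.17 FPKM in 14-7-0 replicate 4 (next 12.8 FPKM), the library with 10279 genes listed at 0.

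The difference between 14-7-2 and sedentary mice was larger in harvest cohort 2 than in cohort 1 for Fos (by -1.281 on the log2 scale) and Fosb (by -0.924), both with a limma p under 0.05 and an adjusted p of 0.953. These were 2 of 36 such tests of the members, about as many as pass by chance alone at this threshold.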

How the results depend on the processing

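For Fos, sedentary minus home cage was -0.0942 in cohort 1 alone, against 0.36. All 217 values of called differences under the alternatives kept their sign; of 918 other member differences 83 changed sign, the largest of them 0.28 as reported. Numbers of members called that changed by over 1.5 times are given by setting, with "from sedentary" and "from home cage" for the group compared. The share of all genes called under each setting is not given, so these counts were not read against all genes. With a minimum of 5 FPKM, which removes Fos and Fosb from the table, 0 were called from sedentary in all 5 groups, 1 in 14-7-2 from home cage, 0 by the F test and 0 for the cohort difference in 14-7-2. Cohort 1 alone gave 0 from sedentary in all 5, 1 in 14-7-2 from home cage and 0 by the F test. Cohort 2 alone gave 1 in sedentary from home cage, 2 in 14-7-0 and 2 in 0-0-2 from sedentary, 0 in 14-7-0, 1 in 14-7-2 and 0 in 14-14-0 from home cage, and 2 in 14-7-2 minus 14-7-0.

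A p under 0.01 gave 1 in 14-0-0, 0 in 14-7-0, 1 in 14-14-0 and 0 in 0-0-2 from sedentary, 0 in 14-7-0 and 1 in 14-7-2 from home cage, 1 by the F test and 0 for the cohort difference, and an adjusted p under 0.05 gave 0 throughout. The joint fit gave 1 in sedentary from home cage, 2 in 14-7-0 and 2 in 0-0-2 from sedentary, 1 in 14-7-2 and 2 in 14-14-0 from home cage and 1 for the cohort difference in 14-14-0. Cyber-T gave 2 in sedentary from home cage, 3 in 14-7-0, 4 in 14-14-0 and 2 in 0-0-2 from sedentary, and 1 in 14-0-0, 2 in 14-7-0 and 2 in 14-14-0 from home cage. The GC score covariate gave 1 in 14-14-0 from sedentary, 2 in 14-14-0 from home cage, 1 in the mean of trained groups and 1 for the cohort difference in 14-14-0. Median-ratio scaling gave 1 in 14-14-0 from sedentary; a pseudocount of 1 and quantile normalization each gave 2 in 14-14-0 from home cage, and quantile normalization 1 between cohorts. Beyond the minimum of 5 FPKM and the stricter thresholds, the causes were not tested.

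The replicate block gave 2 in sedentary from home cage, 2 in 14-7-0 and 2 in 0-0-2 from sedentary, 2 in 14-14-0 from home cage, 1 in the mean of trained groups and 1 for the cohort difference in each of 14-7-0 and 14-14-0. Libraries with the same number in different groups had a median correlation of 0.0853 (45.7% above 0.1), against -0.0204 for other numbers of the same cohort (24.2%), and 22 of 70 correlated best with their own number. Replicate 9 had the lowest Junb of cohort 2 and a GC score under 0 in all 7 groups, and replicate 8 a GC score above 0 in all 7. No label ties a number to a batch or litter, and not every pair was above 0.1, so the numbers were not taken to pair the samples.

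Leaving out 1 library at a time (each sedentary library or 14-7-0 replicate 4) gave between 0 and 1 in sedentary from home cage, 1 to 2 in 14-7-0, 1 to 4 in 14-14-0 and 0 to 2 in 0-0-2 from sedentary, 1 to 3 by the F test, 0 to 2 between cohorts, and 0 to 1, 1 to 2 and 0 to 2 for the cohort differences in 14-7-0, 14-7-2 and 14-14-0. Counts in 14-0-0 and 14-7-2 from sedentary remained at 2 in each of these fits. Depth per library was not used here, so counting error was not separated from the spread between mice. Harvest cohorts hold 5 libraries a group.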

Other observations

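Fos had a log2 SD of 0.81 in home cage and in sedentary mice, 0.57 in 14-0-0, 0.48 in 0-0-2, 0.42 in 14-7-2 and 0.35 in 14-7-0 and 14-14-0. The difference in spread between groups was not tested.

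Jdp2, the repressor that pairs with Jun, was also higher in the mean of the 6 trained groups than in home cage mice, by 0.20 (limma p = 0.0344). In the same comparison Mapk3, which encodes the kinase ERK1, was lower (-0.13, p = 0.0453), Hspa5 was lower (-0.33, p = 0.00151) and Nptx2, a secreted synaptic pentraxin, was higher (0.27, p = 0.0186). No adjusted p of these genes passed 0.05.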
